A study of Mus musculus with 10 samples.

Results

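The motile cilium genes of the airway were read from whole-lung RNA of 10 mice at postnatal day 30 (P30). Members were taken by a rule on name, type and mean level, set with earlier results of these data known. They are the protein-coding genes Foxj1 and Tppp3 and those whose symbol starts with Dnah, Dnai, Cfap, Tekt, Rsph or Drc followed by a digit, with a mean of at least 0.1 FPKM (fragments scaled by gene length and by the depth of the library) over the 10 samples. Of 54532 genes in the table, 64 matched by name and 61 reached that level. These were 14 Dnah, 30 Cfap, 5 Tekt, 7 Rsph and 3 Drc genes with Foxj1 and Tppp3, spread over 17 chromosomes. No symbol had Dnai followed by a digit, since the table lists such genes under older names such as Dnaic2. The lowest member was Dnah7a, with a mean of 0.156 FPKM, and the 3 genes below the limit were Cfap97d2 at 0.0891, Dnah14 at 0.0481 and Rsph6a at 0 FPKM.

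The IPF group (increased pulmonary flow) held 5 wild-type C57BL/6J mice given an aortocaval fistula at P7, a needle puncture from the abdominal aorta into the inferior vena cava that sends extra blood through the lungs. The sham group held 5 wild-type mice of the same strain that had the same anesthesia and laparotomy at P7 without the puncture, and both groups were collected at P30. Every IPF library carried the X-inactivation transcript Xist, at 26.8 to 43.2 FPKM, and read 0 FPKM for the Y-linked gene Ddx3y. Sham libraries read 0.0301 to 0.0767 FPKM for Xist and 14.3 to 21.4 FPKM for Ddx3y. Sex and operation therefore cannot be told apart in any comparison of the groups. Between 15483046 and 19026843 reads per sample were recovered from the FPKM steps. A member had between 1 and 6153 reads in a sample, with a median of 88, and 4 members had a sample with 3 reads or fewer. Sham replicate 1 stood apart, with a mean Spearman correlation of 0.912 to the other libraries against 0.929 to 0.932 for the rest.

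Motile cilia are the beating hairs of multiciliated cells, which line the conducting airways among secretory club cells and move mucus toward the throat. Their shaft, the axoneme, is a ring of microtubule doublets around a central pair. Outer and inner dynein arms, built on the heavy chains of the Dnah family, slide the doublets past each other. Radial spokes (Rsph) and the nexin-dynein regulatory complex (Drc) control that sliding, tektins (Tekt) lie inside the doublets, and the Cfap name covers cilia and flagella associated proteins of many kinds. Foxj1 is the transcription factor that switches on the genes of motile cilia. Tppp3 is a tubulin-binding protein used as a marker of ciliated cells but also made by other cells. In whole lung, fewer ciliated cells and less RNA per ciliated cell cannot be told apart.

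Most motile cilium genes went up and down together from mouse to mouse, and the mice sorted largely, though not fully, by operation. IPF replicate 3 gave the highest value of the 10 samples for 44 of the 61 genes (72.1%), where 13.3% of the 20448 genes tested were highest in that library. The lowest value fell in IPF replicate 1 for 23 members, in IPF replicate 4 for 16 and in IPF replicate 5 for 9. On the log2(FPKM + 0.1) scale, with each gene centred on its own mean, the mean over the 61 genes was -0.54, -0.27, 0.81, -0.47 and -0.45 in IPF replicates 1 to 5. In sham replicates 1 to 5 it was 0.40, 0.20, 0.25, 0.37 and -0.29. The samples thus lay in a low set, made of 4 IPF mice and sham replicate 5, and a high set, made of IPF replicate 3 and 4 sham mice, with none between -0.27 and 0.20. The geometric mean of the genes (on FPKM + 0.1) was 2.55-fold higher in the highest sample than in the lowest. In IPF replicate 3 it was 2.36-fold that of the other 4 IPF mice and 1.54-fold that of the sham group.

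**Figure D1:**
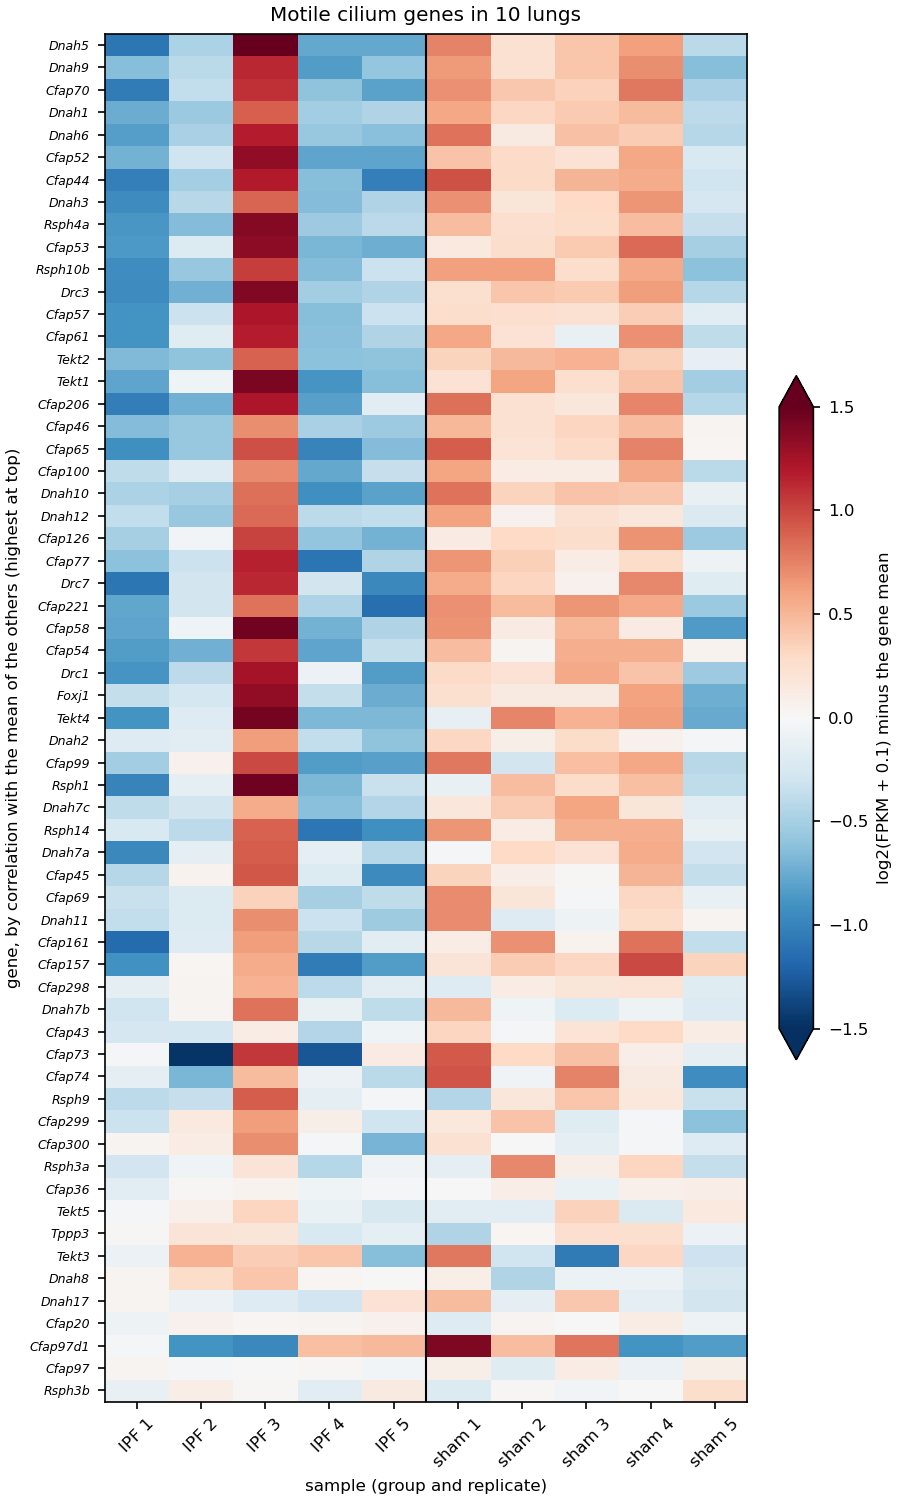
Heat map of log2(FPKM + 0.1) minus each gene's mean for the 61 motile cilium genes (rows, ordered by correlation with the mean of the other members) in 5 IPF and 5 sham samples (columns). IPF replicate 3 is the high column of the IPF group, sham replicate 5 is the low column of the sham group, and the bottom rows have correlations under 0.6, although Dnah8 among them is also highest in IPF replicate 3. Colours stop at 1.5 above and below the mean.

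Co-variation was described by Pearson correlations over the 10 samples, without a test. Among 1830 pairs of members the median r was 0.74 (quartiles 0.32 and 0.88, range -0.74 to 0.99), and 41.0% of pairs lay above 0.8. Among the 209050128 pairs of all genes tested the median was 0.00 (quartiles -0.28 and 0.28), with 0.864% above 0.8. The first principal component held 79.4% of the variance of the members and 19.1% of that of all genes tested, and 57 of the 61 members loaded on it in the same direction. Centring each gene on its group mean left the median correlation of a member with the mean of the others at 0.92, against 0.91 uncentred. Without IPF replicate 3 it was 0.88.

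**Figure D2:**
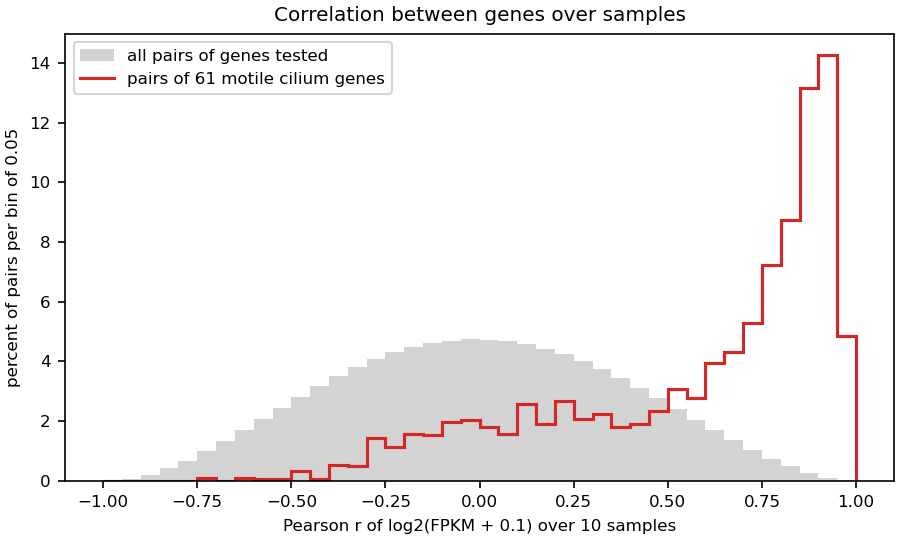
Histogram of pairwise Pearson r over 10 samples (x axis) as the percent of pairs (y axis) for all pairs of tested genes (grey) and for the 1830 pairs of motile cilium genes (red). All pairs centre on 0.00, while the member pairs pile up at high r with a median of 0.74.

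By its correlation with the mean of the other members, each gene fell in 1 of 3 bands. In the first, 34 genes had an r of at least 0.9, and IPF replicate 3 was the highest sample for each of these 34. The outer arm heavy chains Dnah5 (r = 0.995) and Dnah9 (0.984) and the gene Cfap70 (0.983) led this band, which also held Foxj1 (0.914) and the 3 Drc genes (0.926 to 0.958). A middle band of 17 genes lay between 0.6 and 0.9. The remaining 10 genes were below 0.6 and were Cfap36 (0.417), Tekt5 (0.297), Tppp3 (0.266), Tekt3, Dnah8, Dnah17, Cfap20 (-0.026), Cfap97d1 (-0.086), Cfap97 (-0.118) and Rsph3b (-0.193). Dnah8 and Dnah17 are dynein chains of the sperm tail. Cfap97d1 had 1 to 10 reads per sample, so its r rests on counting noise as well as on its level.

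The genes also varied more between mice than most. The median SD of a member over the 10 samples was 0.60 on the log2 scale, against 0.26 for all genes tested. Within the IPF group it was 0.70 against 0.21, and within IPF without replicate 3 it was 0.24 against 0.20. Within the sham group it was 0.37 against 0.21. IPF replicate 3 was left out for its values of these same genes, so the fall of the IPF spread to 0.24 follows from that choice. No sham mouse was left out, so 0.24 and 0.37 are not a matched comparison.

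Promoters of 48 of the 61 members were matched by symbol in the RefSeq table of build GRCm38.p6, which gives 300 bases from 250 before to 50 after each start. For 35 of these 48 the gene start in the deposited table lay inside a matched promoter. The 4 shown contrast genes of the tight band (Dnah5, with the highest r, and Cfap44, the member with the highest r among those with a match to the short X-box motif, r = 0.975) with the steady genes Cfap36 and Cfap20, the members of highest mean FPKM with a promoter in the table. Dnah5 and Cfap44 were chosen after their values were seen. Capitals mark GTTGCC, a short form of the X-box that RFX factors bind, and TGTTTAC, a forkhead motif, in either orientation (GGCAAC and GTAAACA on the other strand). The windows are chr15:28203516-28203815 (plus strand) for Dnah5, chr16:44394549-44394848 (plus) for Cfap44, chr11:29247223-29247522 (minus) for Cfap36 and chr8:95434820-95435119 (minus) for Cfap20, each printed 5′ to 3′ on the gene's strand.
Dnah5: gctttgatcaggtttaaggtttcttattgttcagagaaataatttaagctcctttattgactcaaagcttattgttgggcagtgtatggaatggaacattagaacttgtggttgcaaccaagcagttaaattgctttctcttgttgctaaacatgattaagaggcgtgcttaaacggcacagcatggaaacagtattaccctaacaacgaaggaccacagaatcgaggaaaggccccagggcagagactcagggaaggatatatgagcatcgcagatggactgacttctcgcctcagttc
Cfap44: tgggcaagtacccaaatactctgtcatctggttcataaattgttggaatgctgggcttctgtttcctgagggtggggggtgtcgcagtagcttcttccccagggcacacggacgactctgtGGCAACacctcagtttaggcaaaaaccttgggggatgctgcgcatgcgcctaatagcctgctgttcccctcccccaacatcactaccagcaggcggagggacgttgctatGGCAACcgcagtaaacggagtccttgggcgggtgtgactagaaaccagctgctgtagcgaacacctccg
Cfap36: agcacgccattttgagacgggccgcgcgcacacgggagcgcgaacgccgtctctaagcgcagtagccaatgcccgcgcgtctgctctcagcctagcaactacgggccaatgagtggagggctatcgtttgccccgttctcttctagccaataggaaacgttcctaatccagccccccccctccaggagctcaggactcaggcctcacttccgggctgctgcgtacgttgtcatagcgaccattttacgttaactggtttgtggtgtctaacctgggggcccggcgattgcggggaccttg
Cfap20: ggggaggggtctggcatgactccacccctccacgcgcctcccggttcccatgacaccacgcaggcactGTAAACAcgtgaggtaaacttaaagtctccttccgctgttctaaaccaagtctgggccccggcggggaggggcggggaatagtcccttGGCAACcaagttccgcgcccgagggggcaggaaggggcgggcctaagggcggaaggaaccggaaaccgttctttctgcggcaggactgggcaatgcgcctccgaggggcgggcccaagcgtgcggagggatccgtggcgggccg

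Within these windows GTTGCC occurred on either strand in 20 of 55 member promoters (36.4%), against 12.5% of all 32851 promoters. The full X-box of 14 letters, which can contain the short form, occurred in 1 of 55 (1.82%), that of Cfap298, against 0.451% of all. TGTTTAC occurred in 4 of 55 (7.27%), in Cfap20, Cfap43, Dnah17 and Tekt3, against 3.65% of all. Of 31 promoters of genes with an r of at least 0.9, 10 held GTTGCC (32.3%) and 0 held TGTTTAC. Of 8 promoters of genes with an r under 0.6, 2 held GTTGCC and 3 held TGTTTAC. Matches describe letters in these windows and are not measured binding sites.

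The comparison of IPF with sham asks whether raised flow from P7 went with a different level of these genes at P30. Values were compared with limma on log2(FPKM + 0.1), adjusted by Benjamini-Hochberg over the 20448 genes. No member reached an adjusted p under 0.05, where 5.85% of all genes tested did, nor the joint limits of that p and an absolute log2 fold change above 1, where 1.14% did. At an unadjusted p under 0.05 there were 6 members (19.5% of all genes tested), each lower in IPF, where 8.3% of all genes were lower at that p. With limma voom on the recovered reads 1 member, Cfap43, had an adjusted p under 0.05 (0.0366), against 7.17% of all genes. No member had groups that did not overlap (7.29% of all genes).

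Even so, 52 of the 61 log2 fold changes were below 0, as were 49.6% of all genes tested, and the median was -0.39 against 0.00. Members that move together are not separate observations of this direction. The range ran from -0.88 (Cfap157) to 0.31 (Dnah8), and the median standard error was 0.34 for the members against 0.14 for all genes. The geometric mean over the 61 genes was 0.774-fold in IPF relative to sham, and 0.652-fold for the 4 IPF mice other than replicate 3. For 24 members all 4 of these mice lay below all 5 sham mice, as they did for 4.75% of genes tested. Replicate 3 was set aside for its high values of these same genes, so that share is not a matched background. For 51 members at least 4 IPF mice lay below the sham median, as for 32.6% of genes tested.

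**Figure D3:**
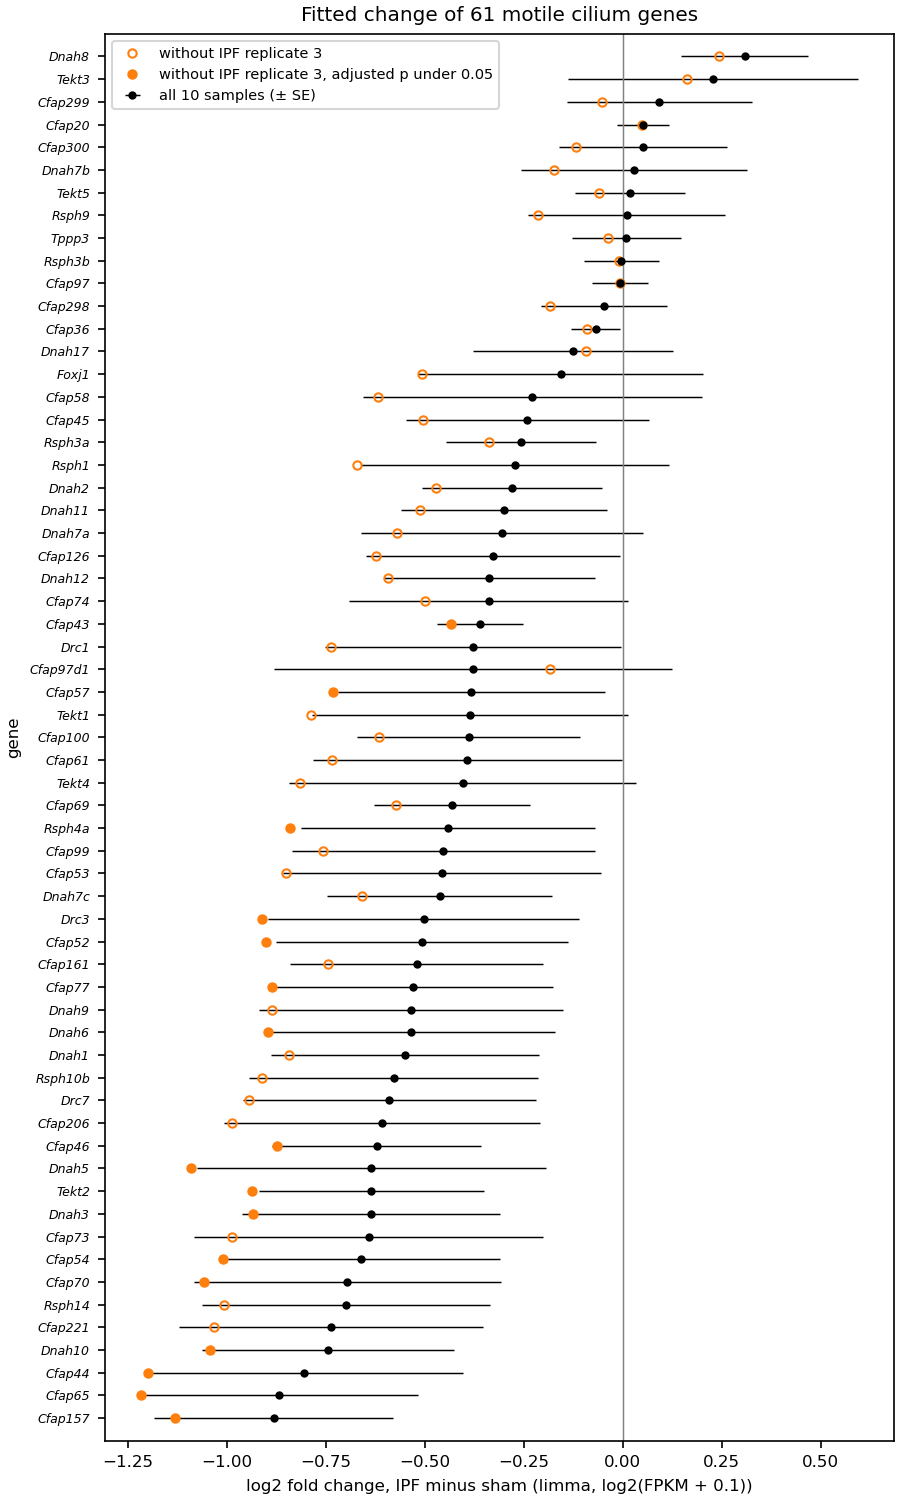
Log2 fold change of IPF over sham with its standard error (x axis, on the log2(FPKM + 0.1) scale) for each of the 61 genes (y axis), from all 10 samples (black) and without IPF replicate 3 (orange, filled where the limma adjusted p was under 0.05). With all samples 0 genes pass, and without IPF replicate 3 there are 17 filled points, all below 0.

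Leaving out IPF replicate 3 changed the calls. With 4 IPF and 5 sham mice 17 members had a limma adjusted p under 0.05, all lower in IPF, where 2.49% of all genes tested were lower at that limit. They were 10 Cfap genes, the heavy chains Dnah3, Dnah5, Dnah6 and Dnah10, and Drc3, Rsph4a and Tekt2. Cfap44, Cfap54, Cfap65, Cfap70, Cfap157, Dnah5 and Dnah10 also passed the fold limit (7 members, 1.33% of all genes), and 58 of 61 fold changes were below 0 (49.5% of all genes) with a median of -0.73. At an unadjusted p under 0.05 there were 40 members, against 9.38% of all genes that were lower at that p. Since this mouse stood out by the values of these same genes, the counts without it describe how far 1 library sets the result and do not replace the comparison of all 10. The same holds for each fold change and p-value of a single gene given below without it. Sham replicate 5, the low sample of the sham group, was not left out together with it. Without IPF replicate 3 and the divergent sham replicate 1 the count was 6 (1.51% of all genes were lower at that limit), made of Cfap44, Cfap46, Cfap54, Cfap65, Dnah10 and Tekt2, of which 2 also passed the fold limit (0.919% of all genes). Without sham replicate 1 alone it was 0 in either direction, where 4.46% of all genes passed in either direction.

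Foxj1 (ENSMUSG00000034227, GRCm38 chr11:116330704-116335399, minus strand), the regulator of the program, read 9.52, 10.1, 30.7, 9.50 and 7.24 FPKM in IPF replicates 1 to 5. In sham replicates 1 to 5 it read 14.5, 13.4, 13.4, 18.6 and 7.27 FPKM. The groups overlapped, with sham replicate 5 as low as the lowest IPF mouse and IPF replicate 3 above all others. Group means were 13.4 ± 9.72 and 13.4 ± 4.06 FPKM (SD, n = 5 each), and limma gave a log2 fold change of -0.16 ± 0.36 (SE, adjusted p = 0.861). The fold change of Foxj1 without IPF replicate 3 was -0.51 (limma adjusted p = 0.256). Tppp3 (ENSMUSG00000014846, chr8:105467493-105471526), the member with the highest level, read 157, 177, 176, 133 and 140 FPKM in IPF and 114, 158, 184, 182 and 146 FPKM in sham. It did not follow Foxj1, IPF replicate 3 being level with replicate 2, and limma gave it a log2 fold change of 0.01 ± 0.14 (SE, adjusted p = 0.984).

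Among the dynein heavy chains 12 of 14 fold changes were below 0, with a median of -0.40 on the log2 scale, and IPF replicate 3 was highest for 11. Dnah5 (ENSMUSG00000022262, chr15:28203752-28472052), an outer arm motor whose loss causes primary ciliary dyskinesia, read 0.432, 0.714, 3.11, 0.561 and 0.564 FPKM in IPF and 1.80, 1.22, 1.40, 1.62 and 0.751 FPKM in sham. IPF replicate 3 was 5.48-fold above the mean of the other 4 IPF mice, which were all below the lowest sham mouse. Over all samples limma gave a log2 fold change of -0.64 ± 0.44 (SE, adjusted p = 0.474), and without IPF replicate 3 it was -1.09 (limma adjusted p = 0.0284). Dnah9 (chr11:65831282-66168551), the outer arm chain of the distal part of airway cilia, read 0.401, 0.489, 1.62, 0.337 and 0.422 FPKM in IPF and 1.12, 0.818, 0.941, 1.16 and 0.403 FPKM in sham. Here sham replicate 5 lay within the low IPF values, and limma gave a log2 fold change of -0.54 ± 0.38 (SE, adjusted p = 0.489). Dnah6 (chr6:73017606-73221651), an inner arm chain, read 0.679, 0.883, 3.02, 0.833 and 0.794 FPKM in IPF and 2.34, 1.41, 1.77, 1.70 and 0.931 FPKM in sham. Again 4 IPF mice were below every sham mouse, and a log2 difference of -0.54 (limma adjusted p = 0.463) became -0.90 without IPF replicate 3 (limma adjusted p = 0.0464). The outer arm chain Dnah11 (chr12:117877982-118199043) and the inner arm chain Dnah12 (chr14:26693274-26891703) had log2 fold changes of -0.30 and -0.34 (limma adjusted p = 0.582 and 0.538). Without IPF replicate 3 the fold changes of Dnah9, Dnah11 and Dnah12 were -0.89, -0.51 and -0.59 (limma adjusted p = 0.0923, 0.202 and 0.0816). Dnah7a, Dnah7b and Dnah7c are near-identical copies, so how reads were divided among them is uncertain.

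**Figure D4:**
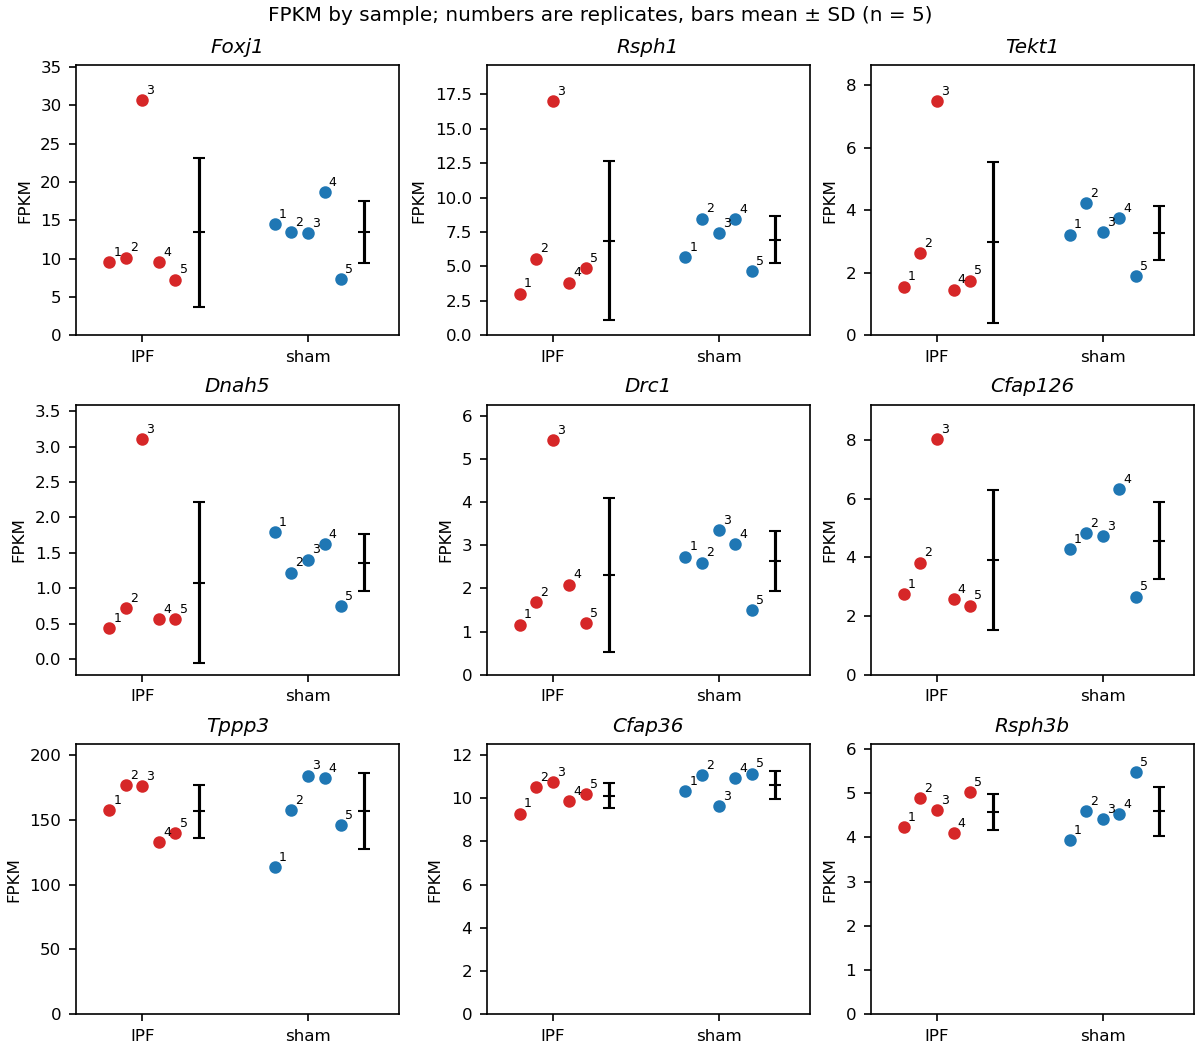
FPKM of 9 motile cilium genes in each IPF and sham sample (y axis, points numbered by replicate, 5 a group), with the group mean and SD as a bar. IPF replicate 3 is above the other IPF mice for Foxj1 (30.7 FPKM), Rsph1, Tekt1, Dnah5, Drc1 and Cfap126, at 2.80-fold to 5.48-fold their mean, whereas for Tppp3, Cfap36 and Rsph3b it was at 1.16-fold, 1.08-fold and 1.01-fold.

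Of the 30 Cfap genes 27 had fold changes below 0, with a median of -0.41 on the log2 scale, and IPF replicate 3 was highest for 21. Cfap157 (ENSMUSG00000038987, chr2:32777381-32784428) read 0.727, 1.48, 2.17, 0.648 and 0.763 FPKM in IPF and 1.67, 1.91, 1.82, 2.97 and 1.84 FPKM in sham. All but IPF replicate 3 were below the sham range, and limma gave a log2 fold change of -0.88 ± 0.30 (SE, adjusted p = 0.125, exact two-sided permutation p = 0.0635). Cfap65 (ENSMUSG00000047021, chr1:74902071-74935599) read 0.511, 0.683, 2.17, 0.477 and 0.636 FPKM in IPF and 2.07, 1.23, 1.31, 1.84 and 1.08 FPKM in sham. The same 4 IPF mice lay below the sham mice, and the fold change of -0.87 ± 0.35 (log2 ± SE, limma adjusted p = 0.193) became -1.22 without IPF replicate 3 (limma adjusted p = 0.0104).

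Cfap43 (ENSMUSG00000044948, chr19:47737561-47919299), part of the tether that anchors the inner dynein motor, had the smallest p of the members. It read 5.14, 5.10, 6.64, 4.49 and 5.87 FPKM in IPF and 7.70, 5.99, 7.06, 7.56 and 6.65 FPKM in sham, with means of 5.45 ± 0.827 and 6.99 ± 0.697 (SD, n = 5 each). Only IPF replicate 3 reached into the sham range, and limma gave a log2 fold change of -0.36 ± 0.11 (SE, adjusted p = 0.0808, exact two-sided permutation p = 0.0159, of which 0.00794 is the smallest possible). Its span overlaps Gsto1 and Gsto2, so its level may include their reads. Cfap70 (chr14:20394193-20452226) differed by -0.70 in log2 (limma adjusted p = 0.361) and by -1.06 without IPF replicate 3 (limma adjusted p = 0.0487).

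Cfap36, Cfap20 and Cfap97 differed little between mice. Cfap36 (chr11:29221532-29247409) ranged from 9.29 to 10.7 FPKM in IPF and 9.62 to 11.1 FPKM in sham, and differed by -0.07 in log2 (limma adjusted p = 0.601). Cfap20 (chr8:95420249-95434869), a doublet protein, ranged from 8.66 to 9.58 FPKM in IPF and 7.99 to 9.86 FPKM in sham, and Cfap97 (chr8:46151771-46195590) from 6.04 to 6.39 and 5.46 to 6.75 FPKM. The fold changes of Cfap20 and Cfap97 were 0.05 and -0.01 on the log2 scale (limma adjusted p = 0.726 and 0.974). Cfap126 (chr1:171113918-171126967) and Cfap298 (chr16:90925809-90935114), an assembly factor of the dynein arms, were in IPF replicate 3 at 2.80-fold and 1.61-fold the mean of the other IPF mice, with log2 fold changes of -0.33 and -0.05 (limma adjusted p = 0.627 and 0.909), or -0.62 and -0.18 without that mouse (limma adjusted p = 0.155 and 0.457).

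Of the doublet, spoke and regulatory genes, the 3 Drc genes and 6 of 7 Rsph genes had fold changes below 0, as did 3 of 5 Tekt genes. Tekt1 (chr11:72344722-72362442) read 1.56, 2.63, 7.50, 1.45 and 1.74 FPKM in IPF and 3.22, 4.23, 3.30, 3.74 and 1.90 FPKM in sham. This tektin differed by -0.39 ± 0.40 (log2 ± SE, limma adjusted p = 0.646), with sham replicate 5 within the IPF range. Tekt4 (chr17:25471590-25476594) followed Tekt1 at -0.40 (limma adjusted p = 0.665), whereas Tekt5 (chr16:10357948-10395490) ranged from 2.22 to 3.34 FPKM in IPF and 2.26 to 3.38 FPKM in sham, with a fold change of 0.02 on the log2 scale (limma adjusted p = 0.965).

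Rsph1 (ENSMUSG00000024033, chr17:31255019-31277356), a protein of the spoke head, read 3.03, 5.57, 17.0, 3.82 and 4.86 FPKM in IPF and 5.68, 8.48, 7.44, 8.41 and 4.68 FPKM in sham. The groups overlapped, and means of 6.86 ± 5.77 and 6.94 ± 1.69 FPKM (SD, n = 5 each) put Rsph1 at a log2 fold change of -0.27 with an adjusted p of 0.757 by limma. The spoke stalk genes Rsph3a (chr17:7945614-7979824) and Rsph3b (chr17:6904413-6948682) are near-identical copies, with fold changes of -0.26 and -0.00 on the log2 scale (limma adjusted p = 0.503 and 0.993), and the division of reads between them is uncertain. Drc1 (chr5:30281388-30366695) read 1.16, 1.68, 5.44, 2.09 and 1.20 FPKM in IPF and 2.74, 2.60, 3.34, 3.02 and 1.49 FPKM in sham. In IPF replicate 3 it was 3.55-fold the mean of the other IPF mice, and limma gave a log2 fold change of -0.38 ± 0.37 (SE, adjusted p = 0.63). Drc3 (chr11:60353329-60394341) and Drc7 (chr8:95055103-95078141) of the same complex had fold changes of -0.50 and -0.59 (limma adjusted p = 0.534 and 0.423). The fold changes of Tekt1, Tekt4, Rsph1 and Drc1 without IPF replicate 3 were -0.79, -0.81, -0.67 and -0.74 (limma adjusted p = 0.0865, 0.162, 0.111 and 0.117). Those of Drc3 and Drc7 were -0.91 and -0.95 (limma adjusted p = 0.0335 and 0.0508).

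Other lists of cilium and airway genes were set beside the members. Of 47 other axonemal genes, 38 were tested, the median log2 fold change was -0.34 (-0.63 without IPF replicate 3), and their mean level correlated at 1.00 with that of the members over the 10 samples. Of the 38, 31 were highest in IPF replicate 3 and 0 had an adjusted p under 0.05. By mean FPKM the list was led by Dynlrb2, Spef1, Dnal4 and Lrrc23, with r of 0.92, 0.56, 0.08 and 0.91 with the members, and of these Dnal4 was highest in sham replicate 4. The 15 tested dynein assembly factors had a median of -0.15 (-0.24 without that mouse) and an r of 0.98 with the members, and the 32 genes of intraflagellar transport and the primary cilium, which most cells carry, had a median of -0.02 (-0.09 without it) and an r of 0.89. The mean of all 20448 genes tested had itself an r of 0.65 with the members, and the median r between pairs was 0.16 in the intraflagellar transport list against 0.81 in the other axonemal list. Of 14 regulators of multiciliated cells, 7 had fold changes above 0 and 7 below. An adjusted p under 0.05, which 5.85% of all genes tested had, was reached by 1 of the 14, Rfx1, named after its values were seen. Rfx1 averaged 4.71 ± 0.319 FPKM in IPF and 6.29 ± 0.978 FPKM in sham (SD with 5 mice a group), and limma put the difference at -0.40 on the log2 scale (adjusted p = 0.0484). That call was lost in 8 of 10 fits that left out 1 mouse, with limma adjusted p from 0.0165 to 0.119 over 22 alternative fits.

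**Figure D5:**
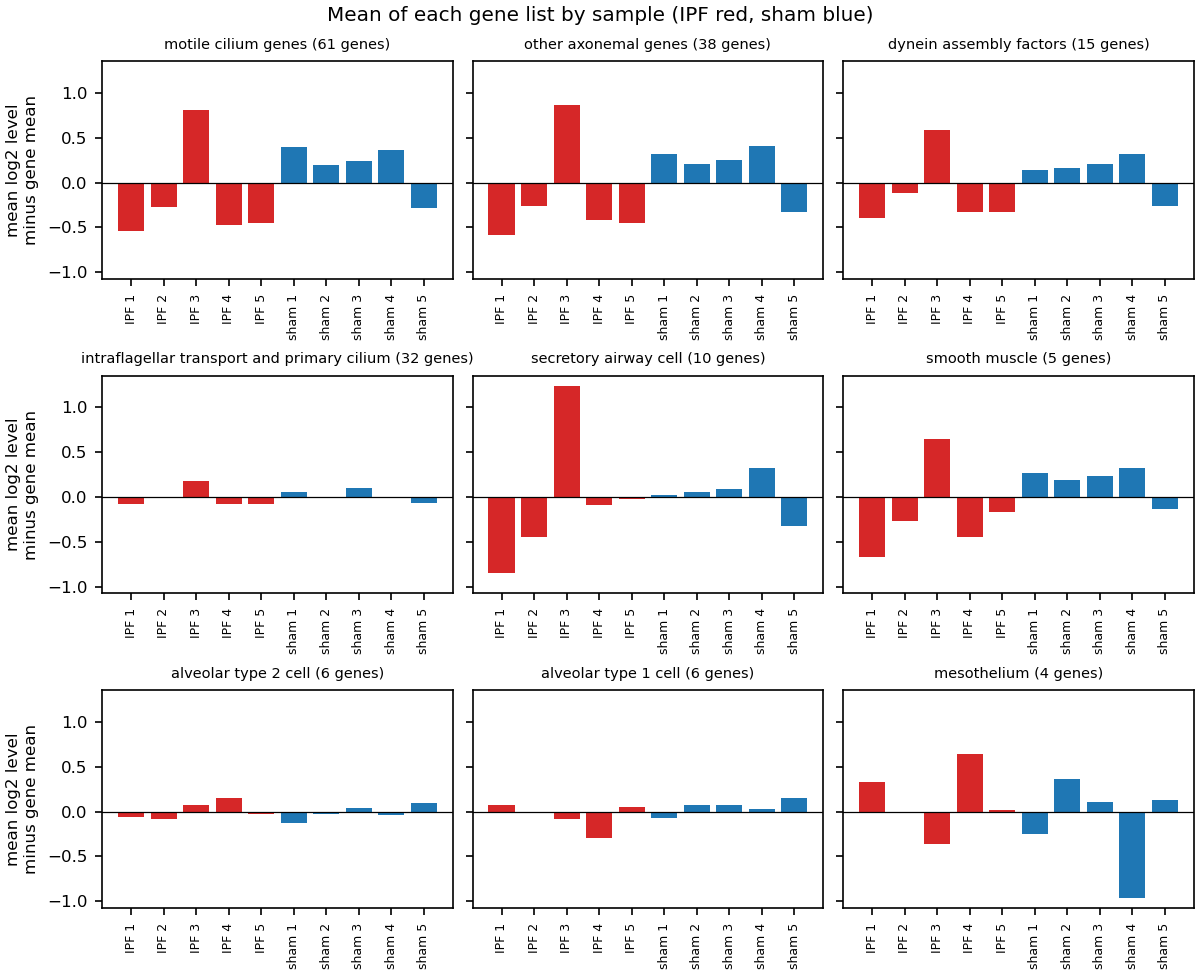
Mean of log2(FPKM + 0.1), centred on each gene's mean (y axis), of 9 gene lists in each IPF and sham sample (x axis). The other axonemal, secretory cell and smooth muscle lists peak in IPF replicate 3 as the motile cilium genes do (0.86, 1.24 and 0.65), and the alveolar type 1 and type 2 lists do not (-0.08 and 0.08).

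Markers of cell types showed which other airway and lung genes moved with the members. All 12 ciliated cell markers were tested, 2 of them members, with a median log2 fold change of -0.28 (-0.57 without IPF replicate 3), and their mean correlated at 0.98 with the members, with 10 of 12 highest in IPF replicate 3. Of 10 secretory cell markers, whose median was -0.05 (-0.33 without that mouse), 8 were highest in that library, and their mean had an r of 0.83 with the members and a range from -0.84 in IPF replicate 1 to 1.24 in IPF replicate 3. Scgb1a1, the secretoglobin of club cells, read 3285, 4791, 25938, 4328 and 12863 FPKM in IPF and 14072, 18825, 16858, 22154 and 11078 FPKM in sham (a difference of -1.12 in log2, limma adjusted p = 0.317). The club cell cytochrome Cyp2f2 read 164, 226, 801, 202 and 258 FPKM in IPF and 357, 401, 392, 475 and 254 FPKM in sham. Both were highest in IPF replicate 3, as were most of the cilium genes. The 10 secretory markers split into 5 with fold changes above 0 and 5 below, and the secretoglobin Scgb3a2 read 263, 461, 716, 368 and 123 FPKM in IPF and 144, 260, 221, 362 and 194 FPKM in sham (a difference of 0.55 in log2, limma adjusted p = 0.508).

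Smooth muscle, which wraps airways and vessels, also moved with the members. Its 5 markers had a median log2 fold change of -0.35, and their mean had an r of 0.96 with them, and 0.94 without IPF replicate 3, over a range from -0.66 in IPF replicate 1 to 0.65 in IPF replicate 3. Acta2 read 61.7, 88.7, 140, 77.7 and 69.0 FPKM in IPF and 87.3, 88.5, 98.2, 104 and 84.1 FPKM in sham (a difference of -0.14 in log2, limma adjusted p = 0.739). The 6 alveolar type 2 and 6 alveolar type 1 markers had r of -0.08 and -0.01 with the members, and the 4 mesothelial markers -0.63. The 4 tested basal cell genes and the 2 tested tuft cell genes had median log2 fold changes of 0.00 and 0.06, and of 6 airway cartilage genes 1, Chad, was tested. The 3 tested neuroendocrine genes had a mean with an r of 0.89 with the members, at 0.95 in IPF replicate 3. Of these Uchl1, named after its values were seen, was lower in IPF, at 2.85 ± 0.683 FPKM against 5.03 ± 0.932 FPKM in sham (SD with 5 mice a group). By limma its log2 difference was -0.81 (adjusted p = 0.0170), and its groups did not overlap. That call was lost in 2 of 22 alternative fits. The highest limma adjusted p, 0.0590, came from the fit with the replicate number as a block. What share of each piece was airway, and the part of that share in the levels of the cilium genes, was not tested.

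Foxj1 was set against 1 marker of each of 9 cell types on the log2 scale, over 10 mice, with permutation p adjusted over the 9. Both genes of a pair come from the same libraries, and what moves a whole library was not removed. With Acta2 Pearson's r was 0.862 (permutation p = 0.00177, adjusted 0.00796) and Spearman's rho 0.806 (permutation p = 0.00715, adjusted 0.0459), and r was 0.577 without IPF replicate 3 and sham replicate 4, the mice farthest from the median. Chad was the only airway cartilage gene of 6 that was tested. With Chad r was 0.867 (permutation p = 0.00116, adjusted 0.00796) and rho 0.758 (permutation p = 0.0146, adjusted 0.0459), and r was 0.782 without those mice. With Scgb1a1 r was 0.625 (permutation p = 0.0526, adjusted 0.0947) and rho 0.758 (permutation p = 0.0153, adjusted 0.0459), and with Calca r was 0.733 (permutation p = 0.0148, adjusted 0.0445) and rho 0.612 (permutation p = 0.0662, adjusted 0.119). Without the same mice r was 0.360 and 0.300 for these, and rho was not computed without them. Leaving out the mice farthest from the median narrows the range, so a lower r does not settle how far these correlations rest on those samples. The alveolar markers Sftpc and Ager had r of 0.0225 and -0.245 (permutation p = 0.945 and 0.478, adjusted 0.945 and 0.614) and rho of 0.358 and -0.479 (permutation p = 0.314 and 0.165, adjusted 0.404 and 0.248). Krt14, Trpm5 and Msln had r of -0.394, -0.0478 and -0.669 (permutation p = 0.266, 0.899 and 0.0346, adjusted 0.400, 0.945 and 0.0778) and rho of -0.297, -0.176 and -0.624 (permutation p = 0.410, 0.634 and 0.0611, adjusted 0.461, 0.634 and 0.119). Within groups, each gene centred on its group mean, r was 0.861 for Acta2, 0.905 for Chad, 0.750 for Calca and 0.672 for Scgb1a1.

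Of 11928 protein-coding genes on no list with a mean of at least 1 FPKM, the 10 most like the mean of the members over the 10 samples were Spata18, Lrrc74b, Ccdc187, Cep126, Ccdc146, Ubxn10, Fam216b, Dnaic2, Cyp2s1 and Sntn, with r from 0.96 to 0.99. Dnaic2 is an outer arm intermediate chain under its older name, and Sntn encodes a protein of the ciliary tip. They were picked as the closest of many, so their r values are a description.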

How the data were processed

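RNA of whole lung was sequenced in 10 mice. The authors used Fastp for trimming, HISAT2 for alignment and StringTie for quantification, and the deposited table holds 1 FPKM value per gene and sample. The methods name GRCm39, the sample records GRCm38. Gene positions are given as deposited. The gene lengths in the table turned FPKM into whole reads for 100% of values (tolerance 0.001), used as a second input.

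Genes with a mean of at least 0.1 FPKM (20448) were tested with limma 3.58.1 (R 4.3.3) on log2(FPKM + 0.1) with trended variances and no covariate, adjusted by Benjamini-Hochberg. This pseudocount understates changes of low genes. Where a member overlaps another gene, its level may include reads of that gene. The joint limits were those of the study, 0.05 for the adjusted p and 1 for the absolute log2 fold change. Exact permutation tests used all 252 assignments and were two-sided. Marker correlations used 100000 permutations. Replicates are separate samples in the labels, and p-values measure the spread between them.

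The members and gene lists were chosen with earlier results of these data known. Named members are Foxj1, Tppp3, the members of highest mean FPKM in each family, every Drc gene, the 3 of smallest p and the 3 of highest and lowest correlation with the others. Other lists are named by mean FPKM unless stated. On simulated reads with this comparison, 168 of 200 genes given a log2 change of 2 were called, with 6 false calls among 20401 genes. The simulation set its dispersion at 0.03. A log2 change as small as the median of the members (-0.39) was not simulated. The power to call changes of that size in the members was therefore not tested. Python 3.11.15, pandas 2.3.3, numpy 2.4.6 and scipy 1.17.1 were used. Alternatives were other pseudocounts, filters, scalings and limits, a replicate block, sample weights, voom and leaving out each sample. DESeq2, which the authors used, was not run.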

Additional observations from a re-analysis of the deposited data

Results flagged for a closer look

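In groups of 5, a sample was marked where its gap to the nearest other sample exceeded 0.71 of the group's range (Dixon's 95% value). Of 54 groups tested 19 had such a sample, where chance gives about 1 in 20, and the genes are not independent of each other. In 16 of the 19 the sample was IPF replicate 3, at the high end.

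These were Foxj1 at 30.7, Rsph1 at 17.0, Cfap126 at 8.05, Tekt1 at 7.50, Tekt4 at 5.45, Drc1 at 5.44, Drc3 at 4.06, Dnah5 at 3.11, Drc7 at 3.08 and Dnah6 at 3.02 FPKM. Lower in level were Cfap65 at 2.17, Cfap70 at 1.80, Dnah12 at 1.63, Dnah9 at 1.62 and Dnah11 at 1.09 FPKM. The mean over the 61 motile cilium genes was 0.81 on the centred log2 scale, the next IPF mouse being at -0.27.

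The same mean was low in sham replicate 5, at -0.29 against 0.20 in the next sham mouse. Cfap157 was high in sham replicate 4, at 2.97 FPKM, and Cfap20 was low in IPF replicate 1, at 8.66 FPKM against 9.35 in the next.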

How the results depend on the processing

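The median log2 fold change of the motile cilium genes (-0.39) stayed below 0 in each alternative, but ranged from -0.73, without IPF replicate 3, to -0.19. The number of members with an adjusted p under 0.05 (0 from all samples) was 1 with voom and 0 to 17 when each mouse was left out in turn, the 17 being without IPF replicate 3 and every other mouse giving 0. Under both limits the range was 0 to 7 (7 without IPF replicate 3). Members whose groups did not overlap numbered 1 after quantile normalization (7.47% of all genes tested) and 0 to 24 with 1 mouse left out (8.44% to 12.1% of all genes, 10.1% without IPF replicate 3, which gave the 24). Without IPF replicate 3 and sham replicate 1, chosen after seeing the data, these counts were 6, 2 and 25 (12.4% of all genes did not overlap). The median pairwise r (0.74) ranged from 0.66 to 0.77 with 1 mouse left out, was 0.69 without those 2 mice, and was 0.65 without IPF replicates 3 and 1, those farthest from the median. Without IPF replicate 3, 2 genes each of the other axonemal (38 tested), dynein assembly (15) and smooth muscle (5) lists passed both limits, as did 1.33% of all genes. With 1 mouse left out the median of the ciliated cell list ranged from -0.57 to -0.15 and that of the other axonemal list from -0.63 to -0.25. That of the secretory list, from -0.33 to 0.06, changed sign, as did those of some other lists. With the replicate number as a block 0 members had an adjusted p under 0.05 and 0 passed both limits. The deviations of same-numbered mice from their group means correlated at -0.0204 to 0.0953, so no pair was above 0.1 and the numbers were not taken to pair the mice, although 6 of 10 samples correlated best with their own number, a hint from the data and not the design. Correlations within IPF alone and sham alone were not run, each having only 5 mice. Depth limits the low members most, 4 of which had a sample with 3 reads or fewer.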
